A study of Homo sapiens with 2 samples.

Results

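The metallothionein family was followed between the human leukaemia line HL60 and its cytarabine-resistant derivative R-HL60. The members were chosen by name: MT1A, MT1B, MT1E, MT1F, MT1G, MT1H, MT1M, MT1X, MT2A and MT3, that is 10 of the 43270 gene and transcript names on the arrays after older symbols were updated. All 10 were found, with 13 probes among them: 3 for MT1E, 2 for MT1B and 1 for each of the others. HL60 cells come from an acute myeloid leukaemia and grow as myeloid precursors. R-HL60 was raised from it by keeping the cells in rising concentrations of cytarabine, a deoxycytidine analogue that blocks DNA synthesis. Both lines grew in RPMI medium with fetal bovine serum and antibiotics; the parental cells had no drug treatment, and whether cytarabine was present at harvest of R-HL60, or whether R-HL60 is a single clone, is not stated in the labels. Each line was measured on 1 one-colour array of 58201 probes, so no difference has a test, and the line and its array cannot be told apart.

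Metallothioneins are small cysteine-rich proteins that bind zinc, copper and cadmium in clusters of thiolate bonds. Their genes are switched on by zinc and cadmium through MTF1, a zinc-sensing transcription factor that binds metal response elements before the gene start. Glucocorticoids and oxidative stress also raise them. MT2A and the MT1 genes are active in many cell types, whereas MT3 is best known from brain and MT4 from stratified epithelium. High metallothionein levels have been studied as a way in which cancer cells withstand metal-containing and alkylating drugs. The genes lie side by side on chromosome 16 and arose by duplication, so their transcripts are alike and an array probe designed for one copy can bind another.

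The promoter sequences are shown for the metal response elements, to which MTF1 is known to bind. RefSeq's promoter table (build GRCh38.p14) held an entry for 4 of the 10 members, MT2A, MT1B, MT1H and MT1X, and for the related MT4; the 4 members are printed as the 250 bases before the annotated start, 5′ to 3′ on the plus strand. Capitals mark matches to the core of the metal response element, searched as TGCACNC and TGCGCNC on both strands. MT2A and MT1X are shown as genes with signal on both arrays, and MT1H as one whose probe lay below the floor on both. The MT2A window spans chr16:56608334-56608583, that of MT1X chr16:56682220-56682469, that of MT1B chr16:56651636-56651885 and that of MT1H chr16:56669564-56669813.
MT2A: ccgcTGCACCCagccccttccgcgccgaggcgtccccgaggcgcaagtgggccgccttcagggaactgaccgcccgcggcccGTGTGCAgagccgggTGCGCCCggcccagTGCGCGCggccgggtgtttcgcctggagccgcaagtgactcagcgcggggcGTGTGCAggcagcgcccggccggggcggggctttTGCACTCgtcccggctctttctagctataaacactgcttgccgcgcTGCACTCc
MT1X: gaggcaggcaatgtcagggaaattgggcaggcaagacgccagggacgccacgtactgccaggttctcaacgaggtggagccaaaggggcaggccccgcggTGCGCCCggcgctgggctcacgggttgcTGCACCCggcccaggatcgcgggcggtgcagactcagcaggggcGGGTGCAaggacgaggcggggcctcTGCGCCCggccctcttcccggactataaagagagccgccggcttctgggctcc
MT1B: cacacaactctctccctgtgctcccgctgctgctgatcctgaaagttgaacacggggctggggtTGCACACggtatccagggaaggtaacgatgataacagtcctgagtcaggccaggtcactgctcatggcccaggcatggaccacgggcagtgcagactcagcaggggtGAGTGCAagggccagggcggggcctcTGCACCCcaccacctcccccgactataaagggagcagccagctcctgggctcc
MT1H: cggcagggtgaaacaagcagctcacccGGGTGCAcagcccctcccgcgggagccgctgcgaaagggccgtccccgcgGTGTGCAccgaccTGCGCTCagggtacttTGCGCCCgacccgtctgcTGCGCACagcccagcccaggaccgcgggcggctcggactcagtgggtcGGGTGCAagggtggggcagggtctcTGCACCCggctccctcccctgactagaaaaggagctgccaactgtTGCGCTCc

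Every one of these windows held several matches to the core of the element. The core matched 7 times in the MT2A window, 4 times in that of MT1X, 3 times in that of MT1B and 8 times in that of MT1H, and MT4 also had 3 matches. Of all 35116 promoters in the table, which belong to 27305 genes, 24.8% held at least 1 match in a window of the same length, 1.58% held 3 or more and 0.370% held 4 or more. Metallothionein genes are known to carry the element, so these shares are a description and no test. A match spanning 53 to 47 bases before the start stood at the same place in MT1X, MT1B and MT1H. The TATA box sequence TATAAA, searched on the plus strand, lay 30 bases before the start in MT1X and MT1B and 29 bases before it in MT2A and MT4. The MT1H window had no match to these letters, which 6.80% of all promoters held. The AP-1 site TGACTCA, searched on both strands, was found once in MT2A and once in MT1B, against 4.20% of all promoters with a match. In pairwise global alignments of the windows, MT1X and MT1H were identical at 61.2% of alignment columns and MT1X and MT1B at 59.9%, while MT2A shared 50.9% with MT1B and 53.9% with MT1X. A match is a description of the letters only.

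**Figure D1:**
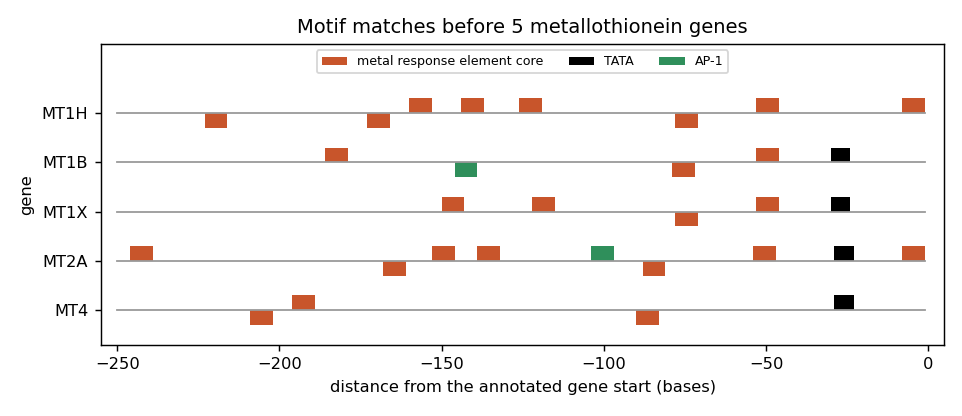
Motif matches in the 250 bases before 5 metallothionein genes, by distance from the annotated start in bases (horizontal axis) and by gene (vertical axis); blocks above a line are on the plus strand and blocks below it on the minus strand. MT2A and MT1H carry 7 and 8 matches to the metal response element core, and the MT1H line has no TATA block.

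The arrays set the limits of what could be read. No detection flags were listed in the deposited files, so the median signal of each array, 30.7 for parental and 32.8 for resistant, served as the floor. A difference is the log2 signal, relative to the array's 75th percentile (292 and 294), on the resistant minus that on the parental array. A probe counted as measured when its signal exceeded the floor in both lines. When it did so in 1 line only, the difference is given as a bound, and when in neither, no difference is given. Of all 58201 probes, 28003 were measured on both arrays, with a median log2 difference of -0.03 and an SD of 0.28, and 56.9% of them were below 0. All 7 markers examined for the myeloid line HL60 (MPO, ELANE, AZU1, PRTN3, CTSG, CD33 and MYC) lay above the floor in both lines. All 7 were lower on the resistant array. Their summed signal went from 824608 to 716733. CTSG (357125 and 315703) and MPO (309491 and 285746) made up most of this sum, with log2 differences of -0.19 and -0.12. The largest log2 differences were those of the dimmer neutrophil protease genes ELANE (700 and 153, -2.20) and PRTN3 (-0.80). Summed signals of the T cell markers went from 4023 to 6299, and those of the B cell markers from 619 to 692; the fibroblast markers went from 55.8 to 65.6 and the epithelial ones from 1630 to 1806. CD3D, a T cell receptor subunit gene, made up most of the first sum, at 3923 and 6201. CD3E went the other way, at 84.6 and 76.9 (a log2 difference of -0.15), and CD3G was below the floor on both arrays. Of the epithelial markers, KRT8 (819 and 936) and KRT18 (807 and 867) were above the floor in both lines, and EPCAM and CDH1 in neither. Of the fibroblast markers, COL1A1, COL1A2 and COL3A1 were above it in neither, and DCN in R-HL60 only (22.2 and 37.7). The part of these shifts in the metallothionein values was not tested.

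Metallothionein signals were close to equal in the 2 lines. Of the 13 probes, 8 were measured on both arrays, 1 had a bound and 4 were below the floor on both. None of the 9 probes with signal over the floor in 1 or both lines was past 2-fold in either direction, where 0.99% of all 30197 such probes were. A count of 0 out of 9 is no result about the family against a background of that size. The 8 measured differences ran from -0.32 to 0.12 on the log2 scale with a median of -0.08, and 7 of them were below 0. These counts cover only the probes that passed the floor. MT1F, MT1H and MT1M, 3 of the 10 members, had no signal above it on either array.

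MT2A, which encodes the main inducible metallothionein of many cell types, had a signal of 228232 in HL60 and 224313 in R-HL60. Its log2 difference was -0.03. In other genes with several measured probes, the log2 differences of probes this bright varied within a gene with an SD of 0.12. The MT2A difference was smaller than this probe-to-probe SD. That SD comes from probes on the same arrays. How much cultures or hybridisations vary was not measured. The highest signal on each array was 508402 and 494194; saturation flags were not among the columns used here, so compression of the brightest signals was not tested.

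MT1A, a further zinc- and cadmium-binding family member, went from 106391 to 98424, a log2 difference of -0.12. The brighter of the MT1B probes gave 78041 and 74165, a difference of -0.08. The other MT1B probe gave 48933 and 46791, a difference of -0.07. Both MT1B probes were slightly lower on the resistant array, by similar amounts. The brightest MT1E probe went from 37779 to 35578, a difference of -0.10. Probes of this brightness have a probe-to-probe SD of 0.12: the MT1B and MT1E values lay within it, and MT1A was about as far from 0 as 1 such SD.

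MT1X, another zinc-inducible MT1 gene, had the largest measured difference of the family. Its signal was 5023 in HL60 and 4054 in R-HL60, so that the parental array was 1.25-fold higher (log2 difference -0.32). The difference exceeded the probe-to-probe SD of 0.12 but rested on 1 probe. Among the 500 measured probes closest to it in brightness, outside the family, 3% had a lower difference, and the central 90% ran from -0.28 to 0.19. MT1X was the only one of the 8 measured probes outside the central 90% of the probes nearest in brightness. A count of 1 of 8 is close to the share that such a range leaves outside by definition. With 1 array a line this ranking places the MT1X probe among others on these arrays and is no test.

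MT3, the growth inhibitory factor known from neurons, was above the floor in both lines, at 2045 and 1948. Its log2 difference was -0.08, against a probe-to-probe SD of 0.14 for probes of its brightness. Whether this signal came from MT3 transcripts or from another copy was not tested.

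The dim probes carried the less certain values. MT1G, an MT1 gene, lay below the floor on the parental array at 24.8 and above it on the resistant array at 46.2. With the parental floor in place of the parental signal, the resistant array was 1.498-fold higher (a bound of 0.58 on the log2 scale). The bound depended on the processing and was 0.25 with 50 units added to every signal. The MT1G probe passed the floor only through the array on which it was higher, so its direction came with its passing. MT1G had 1 probe, and the log2 differences of dim probes for the same gene vary with an SD of 0.29. The second MT1E probe gave 50.7 and 55.3, a difference of 0.12, which is within the SD of 0.29. The third MT1E probe was below the floor on both arrays, at 15.4 and 13.4.

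The remaining members gave signals under the floor in both lines. MT1M, which encodes a further MT1 isoform, gave 6.31 and 14.9, higher in R-HL60 but under both floors. MT1F had 9.66 and 8.67. MT1H had 1.96 and 1.73, close to the lowest signals on the arrays, 1.91 and 1.54. These values were read as not above the floor, with no fold.

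**Figure D2:**
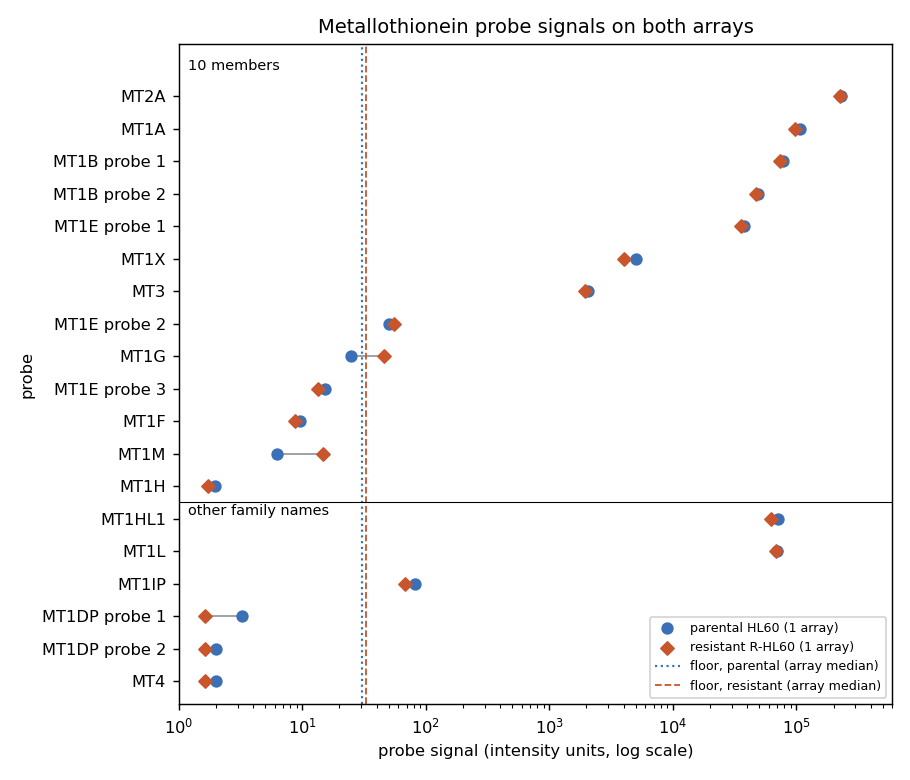
Signal of each metallothionein probe (vertical axis) on the parental and the resistant array, in intensity units on a log axis (horizontal); each point is 1 probe on 1 array, the vertical lines are the array medians used as floors, 30.7 and 32.8, and there are no replicates and no error bars. The 2 points nearly coincide for the bright probes, such as MT2A at 228232 and 224313, and MT1G crosses the floors from 24.8 to 46.2.

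Cross-binding among copies limits what any single name stands for. The probe sequences were not used here, so the extent of it was not tested. Of 10 further family names looked for, 5 were on the arrays, with 6 probes. MT1L, a transcribed pseudogene in the cluster, gave 69936 and 68419, a log2 difference of -0.04. MT1HL1, a copy on chromosome 1, gave 71410 and 62678, a difference of -0.20 with an SD of 0.12 for its brightness. That difference lay inside the central 90% of the 500 probes nearest in brightness, which ran from -0.23 to 0.14. The MT1L and MT1HL1 signals lay far above the floor, as those of MT1A, MT1B and MT2A did. MT1IP, another pseudogene of the cluster, gave 82.5 and 67.9, a difference of -0.29 with an SD of 0.24 for its brightness. Both MT1DP probes, again for a pseudogene, and the MT4 probe were below the floor on both arrays.

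The probes of a single name need not give the same value. The measured MT1E probes had differences of -0.10 and 0.12, which pointed opposite ways, each within the SD for its brightness. The brightest probes of MT1A, MT1B, MT1E, MT1X, MT2A, MT3, MT1L and MT1HL1 ran from -0.32 to -0.03, all below 0 except that MT2A and MT1L came to 0.02 each under a loess correction by brightness. The 500 probes nearest in brightness to each of these had medians of the same sign, from -0.06 to -0.02. With that median subtracted, MT2A stood at -0.01, the brightest MT1E probe at -0.04, MT1A at -0.09, MT1HL1 at -0.16 and MT1X at -0.26.

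**Figure D3:**
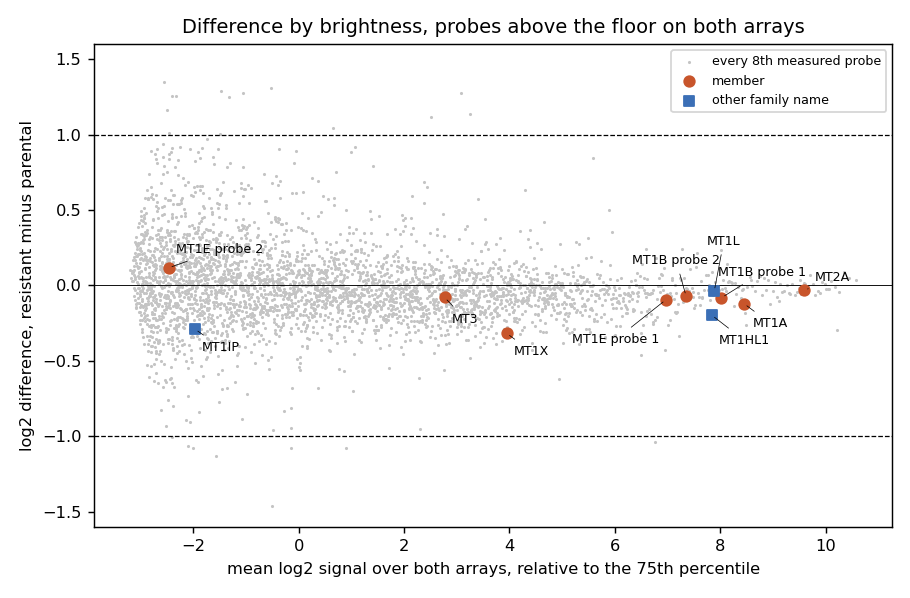
Log2 difference, resistant minus parental (vertical axis), against the mean log2 signal over both arrays relative to the 75th percentile (horizontal axis) for probes above the floor on both arrays; grey points are every 8th measured probe within the plotted range, circles the family members and squares other family names, and dashed lines mark 2-fold. The bright metallothionein probes lie just below 0 (MT2A and MT1L just above it, at 0.02, under a loess correction), and MT1X at -0.32 sits at the lower edge of its surroundings.

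Among members, the sign of the small differences held under the other scalings except for MT2A. MT1X stayed the lowest, from -0.41 with a median shift to -0.25 with a loess correction by brightness. MT2A was at -0.12 with the median shift and at 0.02 with the loess correction, where it changed sign. In the authors' table of normalized intensities, MT2A was at 227034 and 225522 and MT1X at 4953 and 4135, differences of -0.01 and -0.26.

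**Figure D4:**
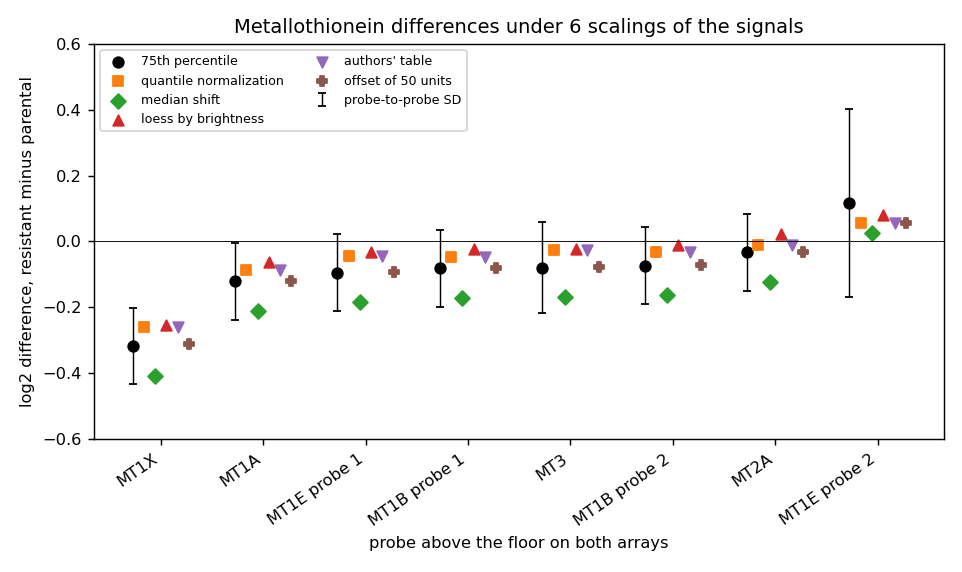
Log2 difference, resistant minus parental (vertical axis), of the 8 measured metallothionein probes (horizontal axis) under 6 scalings of the signals; bars show the probe-to-probe SD for the brightness of each probe, not a spread between cultures. MT1X is below 0 in all 6 and MT2A moves from -0.12 to 0.02 between scalings.

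Genes that sense and carry zinc showed no 2-fold difference either. MTF1, the zinc sensor that drives metallothionein genes, went from 1101 to 973, a log2 difference of -0.19 on its 1 probe. The zinc list held MTF1, the SLC30A exporters, the SLC39A importers and TMEM163. Of its 26 genes, 23 exceeded the floor in 1 or both lines, and none was past 2-fold. Of 22 measured on both, 17 were below 0, with a median of -0.11. Below 0 were 15 with quantile normalization or in the authors' table, 14 of 21 with the loess correction and 19 with the median shift. Over all 21838 genes measured on both arrays, by their brightest probe, 57.2% were below 0 and the median was -0.03, and 1.08% of the 23531 genes with signal over the floor in 1 or both lines were past 2-fold. SLC30A1, the zinc exporter of the plasma membrane and itself a known MTF1 target, had the lowest value of the list, from 795 to 568 (-0.49). SLC39A5, an importer, had the highest, 31.2 and 38.6 (0.30), close to the floor. SLC39A8, which carries zinc and manganese into the cell, gave -0.21 on its brighter and -0.48 on its other probe. SLC39A14, a zinc and iron importer, gave -0.28 and -0.13.

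Copper and iron genes were close to equal. None of 14 copper genes was past 2-fold, where 1.08% of all genes were. Their median was -0.03 (0.04 in the authors' table and with quantile normalization). The reductase gene STEAP3 was lowest at -0.31, and the importer gene SLC31A1 highest at 0.27 on its brighter probe and 0.00 on the other. The exporter ATP7A was at 0.05 on its brightest probe, and its 5 probes ranged from -0.44 to 0.05. Of 8 iron genes 7 were measured, with a median of 0.08 (-0.01 with a median shift). The ferritin subunit genes FTH1 and FTL were at 0.12 and 0.16, and each was above 0 on all 3 of its probes. HMOX1, the haem oxygenase gene that oxidative and metal stress induce, was the highest, from 96.3 to 111 (0.19), and ACO1, which encodes an iron-sensing RNA-binding aconitase, the lowest (-0.18).

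The stress pathways that can raise metallothioneins gave mixed values. Of 12 NRF2 and thioredoxin genes, 11 were measured, with a median of -0.19. Below 0 were 8 of the 11, against 57.2% of all measured genes. The number was 7 with quantile normalization or the loess correction and 9 with the median shift. NFE2L2, the NRF2 gene itself, was below the floor on both arrays, at 3.93 and 6.07. SRXN1, which repairs oxidised peroxiredoxins, was lowest at -0.37 and the cystine transporter gene SLC7A11 highest at 0.35. Of 9 heat shock genes, 7 were measured, with a median of -0.17, and 6 of the 7 were below 0, against the same 57.2%. HSPA1B, an inducible heat shock protein gene with a near-identical copy, went from 4248 to 2393 (-0.84, the parental array 1.79-fold higher). DNAJB1, its co-chaperone, was at -0.52 and the constitutive chaperone gene HSPA8 at -0.43. HSPB1, a small heat shock protein gene, was highest at 0.23. Of 9 glucocorticoid-response genes, 8 were measured with a median of 0.01 (-0.08 with a median shift). Below 0 were 2 of the 8, but 1 with quantile normalization or the loess correction and 5 with the median shift. TSC22D3, the glucocorticoid-induced leucine zipper gene, was highest, from 4591 to 7163 (0.63, or 1.55-fold). KLF9 was next, from 258 to 339 (0.38). FKBP5, a further classical target, was at 0.01 and CEBPD lowest at -0.08. None of these genes was past 2-fold, where 1.08% of all genes were. At 1.5-fold, HSPA1B and TSC22D3 passed, 2 of the 71 genes of the 6 lists above the floor in 1 or both lines, against 4.91% of all genes.

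No gene beside the cluster was past 2-fold, where 1.08% of all genes above the floor in 1 or both lines were. A count of 0 is no result about the neighbours against a background of that size. The cluster runs from MT4 to MT1X with 11 protein-coding genes, and 10 protein-coding genes were taken on each side from the RefSeq order. Of these 20, 17 were measured, from -0.50 to 0.29 with a median of -0.08. Below 0 were 15 of the 17, against 57.2% of all measured genes, but 12 with quantile normalization or in the authors' table and 10 with the loess correction. BBS2, next to MT4, was at -0.04 and NUP93, next to MT1X, at -0.03. CES1, a carboxylesterase gene, was lowest at -0.50, and NLRC5, a regulator of MHC class I genes, highest at 0.29 on its brighter and 0.68 on its other probe.

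**Figure D5:**
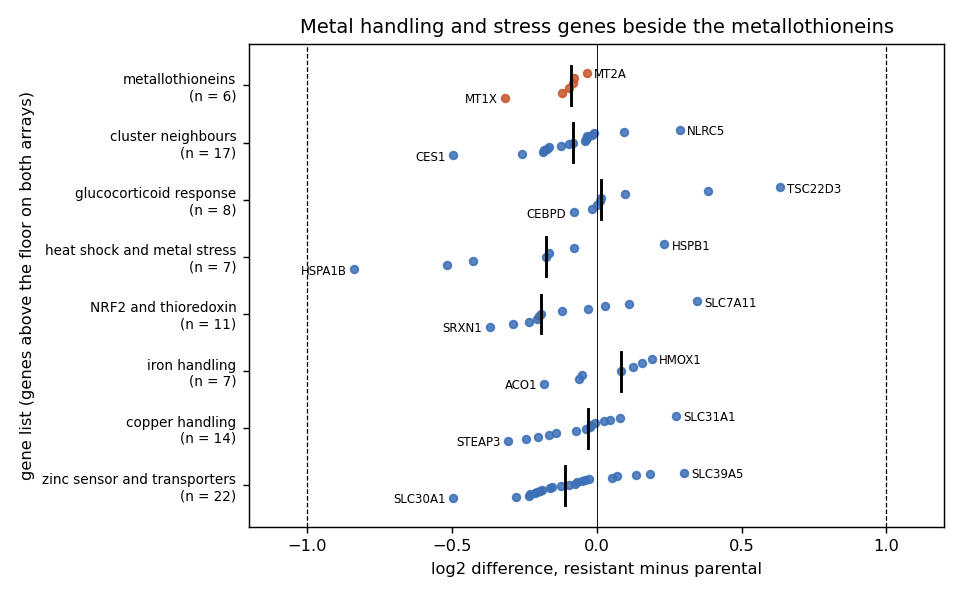
Log2 difference, resistant minus parental (horizontal axis), for the genes of 6 fixed lists, the neighbours of the cluster and the metallothioneins (vertical axis), by the brightest probe of each gene above the floor on both arrays; points are genes, black bars list medians, dashed lines 2-fold, and the lowest and highest gene of each row are named. No point reaches 2-fold, the farthest being HSPA1B at -0.84 and TSC22D3 at 0.63.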

How the data were processed

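Total RNA of each line was taken with TRIzol, amplified and labelled with Cy3, per the labels' protocols. Agilent Feature Extraction 10.7.3.1 was used, per the submitters' processing notes. The deposited files give 1 linear intensity per probe with a gene name; neither the scanner column nor the background treatment is stated in the labels or headers. The authors' normalized table of intensities lay within 1.06% of the mean of both sorted arrays at every rank, and served as an alternative.

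Signals were taken to log2, each array's 75th percentile was subtracted and the array median was the floor. Every probe of a member was reported; other genes stood by their brightest probe. The probe-to-probe SD is that of the log2 differences within a gene, taken in 5 bins of brightness over 4721 genes with several measured probes. Other settings tried were scaling by quantiles, by the median or by loess, the deposited normalized values, 50 units added to every signal, a lower or higher floor (40th or 60th percentile) or no floor, thresholds of 1.5-fold and 3-fold, and the mean over a gene's probes. The 43317 names were matched to RefSeq symbols, and 1567 older ones were updated. Named genes were all members and, per list, those past 2-fold and the extremes. MTF1, SLC39A8, SLC39A14, ATP7A, FTH1, FTL, DNAJB1, HSPA8, FKBP5, BBS2, NUP93, CD3D, CD3E and CD3G were added after their values were seen. So were HSPA1A, KLF9 and NFE2L2. The members and lists were chosen with earlier results of these data known. The steps were tested on simulated data. Python 3.11.15, numpy 2.4.6, pandas 2.3.3, statsmodels 0.14.6, biopython 1.88 and matplotlib 3.10.9 were used. Each line had 1 array, which limits the precision and allows no test.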

Additional observations from a re-analysis of the deposited data

How the results depend on the processing

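Across 9 member probes above the floor on at least 1 array and 8 other settings of scaling, offset and floor, 67 of 70 values lay within the probe-to-probe SD of the reported one. The 3 others were those of MT1G, at 0.25 with the offset of 50 units and at 0.89 with the 40th percentile floor or no floor; with the 60th percentile floor it had no value. Part of the 67 was fixed in advance. A change of floor cannot alter a measured difference, and the authors' table nearly repeated the quantile scaling. MT2A changed sign under loess by brightness only (0.02). The median over the 6 measured member genes was -0.09, and the median ran from -0.18 to -0.03 over 9 settings. It covered 7 genes with the 40th percentile floor and all 10 without a floor. The number of member probes past 2-fold was 0, and 1 without a floor, namely MT1M, whose signals of 6.31 and 14.9 were both below it. Of 71 genes of the 6 metal and stress lists above the floor on at least 1 array, 0 were past 2-fold. Of all genes, 1.08% were. The number was 1 without a floor (TMEM163) and 2 at a 1.5-fold threshold (HSPA1B and TSC22D3), where 4.91% of all genes passed. No array could be left out, as each line had 1. No paired analysis was possible because each line had 1 array.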
